A study of Rattus norvegicus with 16 samples.

Results

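The genes described here encode enzymes of the citric acid cycle, of pyruvate entry into it and of amino acid breakdown in mitochondria. Of 36 genes listed, 34 were measured by a probe set that carried a single gene symbol, out of 14217 genes with such a probe set. Fh and Dlat were not analysed here. Each gene was read from its probe set of highest mean over the 16 arrays. Expression was measured in soleus, a postural hind-limb muscle built mainly of slow fibres, in female rats. HCR and LCR are lines bred from N:NIH stock for high and for low running capacity, scored on a treadmill at 11 weeks of age, and the rats came from generation 16 of selection. Rats of either line stayed sedentary or were trained, which gave 4 groups of 4 rats, with 1 array per rat. Trained rats ran uphill at 25 degrees for 1.5 hours on 5 days per week during 8 weeks. All rats were killed at about 7 months, which for trained rats was 48 hours after the final session. Both lines are products of selection and no unselected rats were compared here, so a line difference has no neutral reference.

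The citric acid cycle oxidises acetyl groups to carbon dioxide and passes the electrons to the respiratory chain. Pyruvate from glycolysis enters it through the pyruvate dehydrogenase complex, while leucine, valine and isoleucine enter it after a shared transamination and an oxidative decarboxylation by the branched-chain 2-oxoacid dehydrogenase complex. Skeletal muscle is a main site of that first transamination, and endurance-trained muscle is known for a high content of mitochondrial enzymes.

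The bases upstream of the start site are shown for Auh, the only member to pass the test in any of the 7 comparisons, and for Mdh2, which held a searched motif. They come from RefSeq, assembly GRCr8, whose table had an entry for 31 of the 34 genes. The Auh stretch is chr17:12481171-12481395 on the plus strand and the Mdh2 stretch is chr12:26543842-26544091 on the minus strand. Both run 5′ to 3′ along the gene, and capitals mark the motif CCGGAAGT.
Auh: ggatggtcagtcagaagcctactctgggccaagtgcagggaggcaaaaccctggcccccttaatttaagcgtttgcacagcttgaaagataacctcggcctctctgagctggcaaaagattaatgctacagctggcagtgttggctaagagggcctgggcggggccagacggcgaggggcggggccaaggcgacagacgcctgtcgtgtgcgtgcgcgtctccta
Mdh2: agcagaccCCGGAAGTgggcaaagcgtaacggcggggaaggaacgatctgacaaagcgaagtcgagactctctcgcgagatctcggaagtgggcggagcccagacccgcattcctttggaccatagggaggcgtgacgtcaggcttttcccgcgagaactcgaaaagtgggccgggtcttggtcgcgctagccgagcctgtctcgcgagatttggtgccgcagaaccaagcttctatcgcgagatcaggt
Windows of 300 bases, 250 before and 50 after the start, were searched on both strands for 3 motifs, none of which contains another. CCGGAAGT, a motif of ETS factors, occurred in 2 of 31 members' windows, those of Dlst and Mdh2, beside 3.81% of 33469 windows over all genes. TCAAGGTCA, a motif of oestrogen-related receptors, occurred in 0 of 31 and in 0.433% of all windows. The palindromic motif of NRF1, a regulator of nuclear genes for mitochondria, occurred in 0 of 31 and in 0.852% of all windows. No match says only that these letters were not in these windows.

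Pairs of arrays correlated between 0.941 and 0.996 over probe sets. The slow fibre markers were present on all arrays: Myh7, the slow myosin heavy chain, had a mean of 14.30 on the log2 scale, and 12.05 on the array HCR trained 3. That array stood apart in fibre type. Its mean over 10 slow fibre genes, relative to the average of all arrays, was -2.40 log2, while the other 15 arrays lay between 0.01 and 0.27. Its mean over 11 fast fibre genes was 2.26 against -0.94 to 0.99. The fast fibre mean was 0.99, 0.56, 2.26 and 0.28 over the HCR trained group, whereas the low slow fibre mean was on HCR trained 3 alone. HCR sedentary rats spanned -0.68 to 0.31 in the fast fibre mean, so HCR trained 4, at 0.28, lay within their range. LCR sedentary rats spanned -0.94 to -0.20 and LCR trained rats -0.42 to 0.01. With training in HCR 8 of the 11 genes lay above 0 and 3 below. In 4 the HCR groups did not overlap, beside 4.94% of probe sets, and 1 passed as higher, beside 0.171%. Without HCR trained 3 and HCR sedentary 2 the counts above and below 0 were 7 and 4, with a median of 0.11. The part of fibre type in the members' values was not tested. The array HCR sedentary 2 stood apart in connective tissue and immune genes, with a mean of 1.88 over 10 extracellular matrix genes against -0.76 to 1.38 elsewhere, and of 1.35 over 10 macrophage and leukocyte genes against -0.73 to 0.60. Its beta-actin control index, the 3′ minus the middle probe set on the log2 scale, was 0.38 against 1.06 to 2.37. Its GAPDH control index, the 3′ minus the 5′ probe set, did not stand apart, at 0.56 against 0.48 to 1.67. The array HCR trained 2 was the highest on both indices, at 2.37 and 1.67.

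That same array, HCR sedentary 2, also stood apart in the citric acid cycle and amino acid breakdown genes. It held the lowest value of all 16 arrays in 28 of the 34 genes and the lowest of its own group in 31. Its median reading was 0.60 log2 units below the mean of the other 3 HCR sedentary arrays, a 1.52-fold lower signal. Averaged over the 34 genes it lay 0.58 below the average array (-0.58), whereas the other 15 arrays lay between -0.13, on LCR trained 2, and 0.17, on LCR sedentary 2. The 4 lowest readings against the rest of the group were those of Bckdha, Bckdhb, Aldh6a1 and Dbt. Bckdha, a catalytic subunit of the branched-chain complex, read 8.53 there against 9.89 to 9.98 on the other 3 arrays of the group. Bckdhb, its partner subunit, read 8.91 against 9.95 to 10.33, and Dbt, the core of the complex, read 8.03 against 8.81 to 9.21. The 3 genes in which it was not the lowest of its group were Pdhx at 9.05 against 8.94 to 9.56, Acadsb at 5.52 against 4.90 to 6.07, and Bckdk at 10.69 against 10.35 to 10.48. Auh was the lowest by little, at 9.85 against 9.87 to 9.92. In whole muscle, fewer cells of a type and less RNA per cell cannot be told apart. The part of the connective tissue and immune genes, and of the control index, in these low values was not tested.

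**Figure D1:**
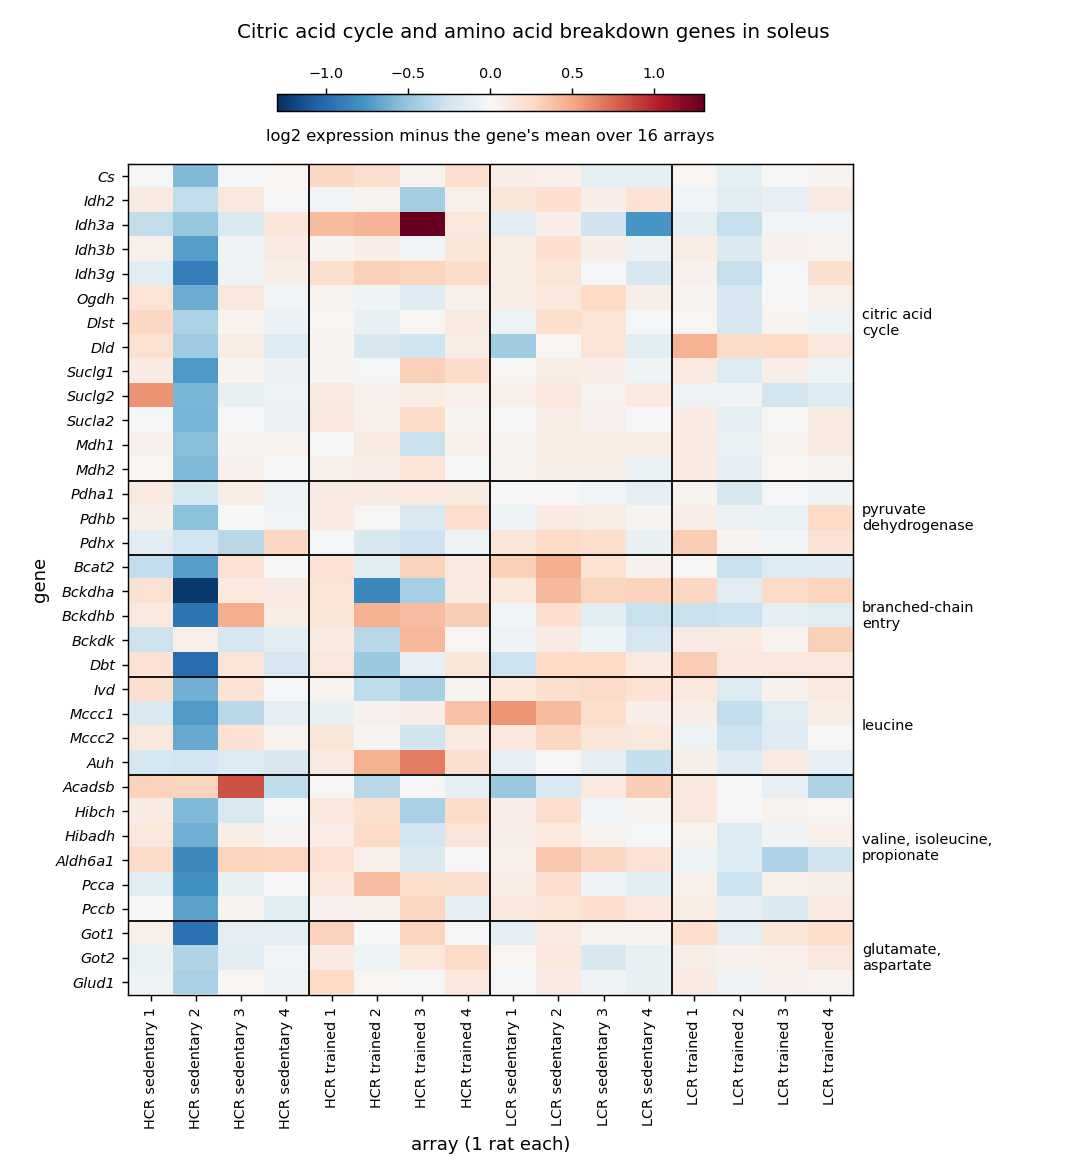
Expression of the 34 genes (rows, grouped by role) on the 16 arrays (columns, 1 rat each), as log2 expression minus the gene's mean over all arrays, blue below and red above. The column HCR sedentary 2 is blue in nearly all rows, and the highest deviation, beyond the end of the colour bar, is Idh3a on HCR trained 3, at 12.21.

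**Figure D2:**
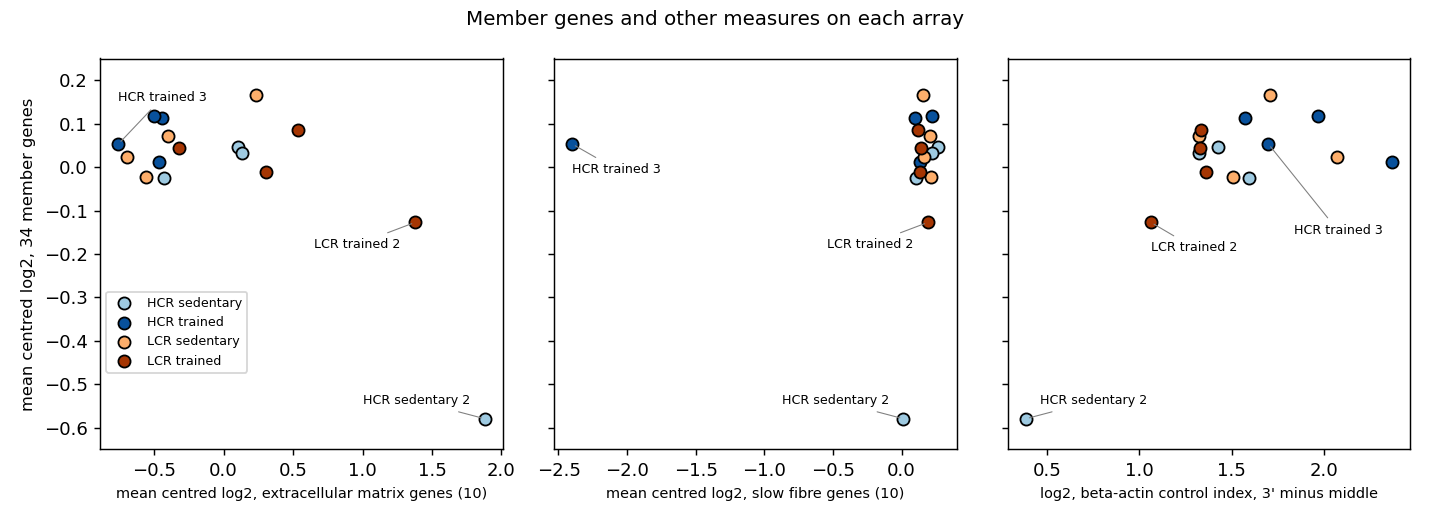
Mean of the 34 genes on each array (vertical axis, log2 minus the average array) against the mean of 10 extracellular matrix genes, the mean of 10 slow fibre genes and the beta-actin control index (horizontal axes, log2), 1 point per array coloured by group. HCR sedentary 2 lies at -0.58 with the highest matrix mean and the lowest index. HCR trained 3, with a slow fibre mean of -2.40, lies at 0.05. That mean joins single genes that differ in direction. The array held the highest of all 16 values in 7 of the 34 genes, and the lowest of its group in 14.

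The response to training in HCR rats was read as trained minus sedentary. Auh, the methylglutaconyl-CoA hydratase of leucine breakdown, rose 1.49-fold and was the only 1 of the 34 genes to pass (limma, Benjamini-Hochberg adjusted p = 0.0486 over 31042 probe sets). Among all probe sets 0.187% passed, 0.171% as higher and 0.0161% as lower. Of the 34 differences 29 lay above 0, with a median of 0.20 log2, beside 55.2% and 0.02 over all 14217 genes. Without the array HCR sedentary 2 these became 20 of 34 and 0.06, beside 56.3% and 0.02, and with the beta-actin index added to the model 15 of 34 and -0.02, beside 48.8% and -0.0042. Unadjusted p-values below 0.05 were found for 10 members, all higher, which is 29.4% beside 17.7% of probe sets. In no member did all trained HCR rats lie below all sedentary ones, which held for 2.67% of probe sets. In 28 of the 34 this could not occur, since HCR sedentary 2 held the lowest of all 16 values.

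Auh read 9.87, 9.85, 9.92 and 9.89 in the 4 HCR sedentary rats and 10.21, 10.56, 10.76 and 10.31 in the HCR trained rats. In LCR it read 10.00, 10.12, 9.99 and 9.79 sedentary and 10.17, 9.93, 10.21 and 9.99 trained. All trained HCR rats thus lay above all other HCR rats, and HCR sedentary 2 was in step with its group. The difference in HCR was 0.58 log2 (SE 0.11, 95% interval 0.35 to 0.81), from 9.88 ± 0.03 to 10.46 ± 0.25 (SD, n = 4). In LCR it was 0.11. The adjusted p lay close to the threshold: the call was lost in 12 of 16 fits that left out 1 array each, with the adjusted p at 0.0531 to 0.132, and in 8 of 10 other settings, up to 0.509 with the beta-actin index in the model. The size of the difference held better, between 0.45 and 0.66 over all those fits.

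With training in LCR rats none of the 34 passed (limma, smallest adjusted p = 0.426, Mccc1), beside 0.00322% of probe sets, and 4 had an unadjusted p below 0.05, which is 11.8% beside 9.76%. Of the differences 25 lay below 0 with a median of -0.03, against 58.7% and -0.03 over all genes. With the beta-actin index in the model 23 of 34 lay above 0, with a median of 0.09, beside 45.9% and -0.01. In 7 of the 34 genes all trained LCR rats lay below all sedentary ones, namely Aldh6a1, Bcat2, Ivd, Mccc2, Ogdh, Pccb and Suclg2, beside 5.61% of probe sets. In no member did all trained LCR rats lie above all sedentary ones, which held for 2.9% of probe sets.

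The comparison of the 2 responses, which share no array, was the interaction. None of the 34 genes passed (limma, smallest adjusted p = 0.105, Mccc1), and 0% of all probe sets did; 6 members had an unadjusted p below 0.05, all above 0, which is 17.6% beside 18.3% of probe sets. The difference was above 0, meaning a response more positive in HCR, in 30 of 34 genes with a median of 0.24, against 60.4% and 0.06 over all genes. In 20 genes the response was above 0 in HCR and below 0 in LCR, a pattern held by 35.6% of all genes. It was above 0 in both lines for 9 genes, below 0 in both for 5, and below 0 in HCR with a value above 0 in LCR for 0 (19.6%, 23% and 21.7% of all genes). Without HCR sedentary 2 the interaction was above 0 in 27 of 34 with a median of 0.09, beside 60.6% and 0.05. Connective tissue and immune markers differed the other way over the same groups. The interaction was below 0 in 10 of 10 extracellular matrix genes (median -1.57, or -1.07 without HCR sedentary 2; 10 with an unadjusted p below 0.05) and in 10 of 10 macrophage and leukocyte genes (median -0.96, or -0.56; 6 with an unadjusted p below 0.05), and 0 genes of either list passed. In HCR both sets lay below 0 with training in 10 of 10 genes, with medians of -0.90 and -0.51, and in LCR both lay above 0 in 10 of 10, with medians of 0.71 and 0.53. Without HCR sedentary 2 the HCR medians were -0.41 and -0.12, with 10 of 10 and 7 of 10 below 0. Adipocyte markers leaned the same way as the members, with an interaction above 0 in 4 of 6 genes and below 0 in 2. Their median was 0.81, or 0.68 without HCR sedentary 2 and 0.54 with the beta-actin index in the model, and 0 had an unadjusted p below 0.05. The adipocyte medians with training were 0.33 in HCR and -0.37 in LCR. Relative to the average array, the mean of the 6 adipocyte genes was 1.44, -0.45, -0.98 and 1.13 in the HCR trained rats. It ran from -0.63 to 0.22 in HCR sedentary, -0.18 to 0.54 in LCR sedentary and -0.44 to 0.03 in LCR trained rats. The summed level of the matrix genes, as a mean relative to the average array, ran from -0.43 to 1.88 in HCR sedentary, -0.76 to -0.44 in HCR trained, -0.69 to 0.23 in LCR sedentary and -0.32 to 1.38 in LCR trained rats. The part of these cells in the members' values was not tested. For the members, with the beta-actin index in the model the interaction was above 0 in 9 of 34 with a median of -0.06, beside 50.9% and 0.0052. In that fit the matrix interaction was below 0 in 9 of 10 genes (median -0.39) and the macrophage and leukocyte one in 10 of 10 (median -0.25). With training in HCR their medians were then -0.05 and 0.04, with 6 of 10 and 4 of 10 below 0. In LCR the medians were 0.42 and 0.30, with 10 of 10 and 9 of 10 above 0. That index averaged 1.18 ± 0.54 in HCR sedentary, 1.90 ± 0.35 in HCR trained, 1.65 ± 0.32 in LCR sedentary and 1.27 ± 0.14 in LCR trained rats (SD, n = 4), so its mean was higher with training in HCR and lower in LCR. Beyond the fit with the index as a term, its part in the pattern was not tested. The GAPDH index was not used in a fit. It averaged 0.61 ± 0.09, 0.90 ± 0.53, 0.65 ± 0.11 and 0.58 ± 0.02 in the same 4 groups.

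**Figure D3:**
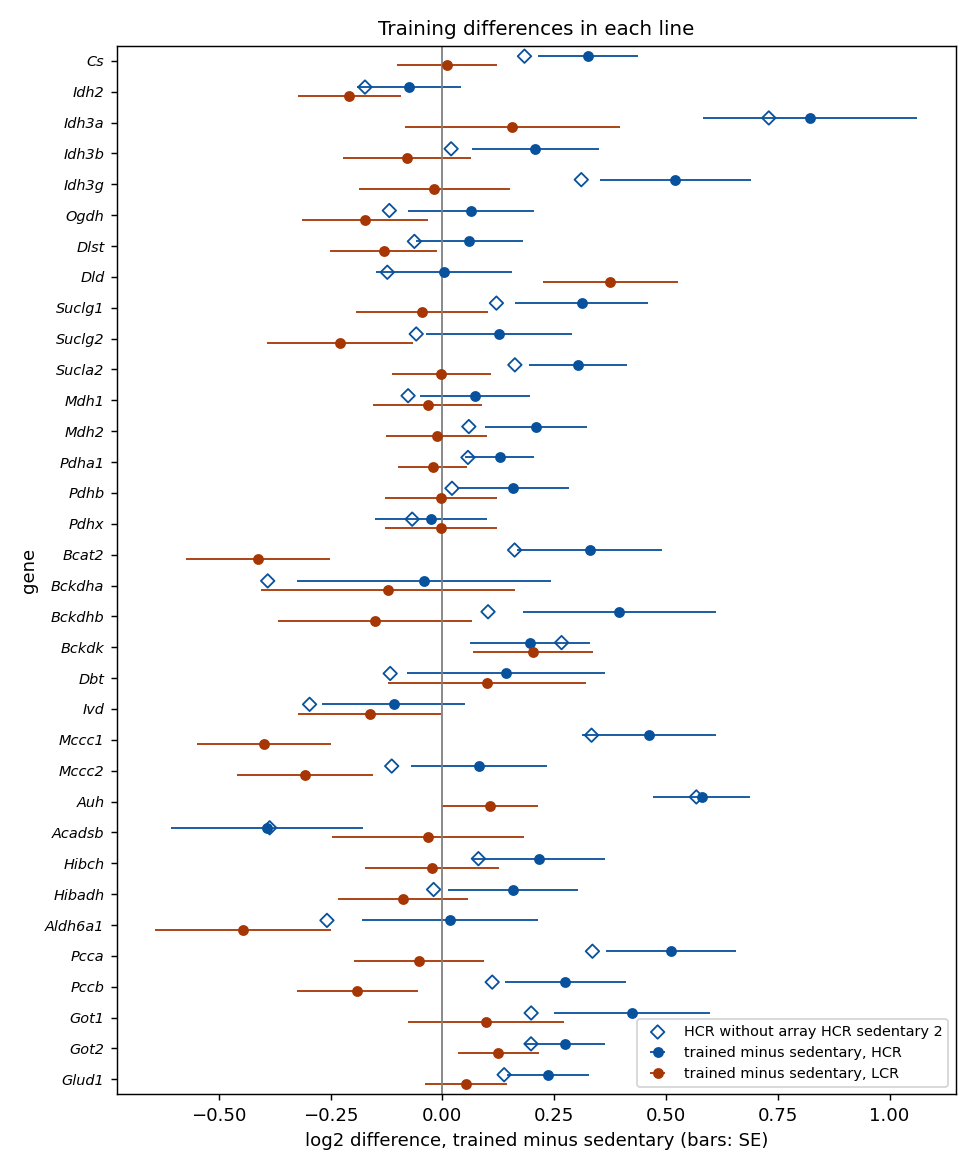
Trained minus sedentary difference in log2 expression (horizontal axis) for each of the 34 genes (rows), with blue points for HCR, brown points for LCR, bars for the SE and open diamonds for HCR without the array HCR sedentary 2. The blue points lie to the right of the brown ones in 30 of 34 genes, and most diamonds lie nearer 0 than their blue points.

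Between sedentary rats the members read lower in HCR than in LCR, in 29 of 34 genes with a median of -0.20 log2, beside 51% and -0.0030 over all genes. None passed (limma, smallest adjusted p = 0.344, Mccc1), beside 0.00966% of probe sets, and 3 had an unadjusted p below 0.05 (8.82% beside 8.37%). Only Mccc1 and Pccb separated all 4 HCR from all 4 LCR sedentary rats, both lower in HCR, beside 2.64% of probe sets. No member separated them with HCR higher, which 2.23% of probe sets did. In 28 of the 34 that could not occur, since HCR sedentary 2 held the lowest of all 16 values. Without HCR sedentary 2 the median was -0.05, with 23 of 34 genes below 0, beside -0.0038 and 51.3%. This comparison and that of training in HCR share the HCR sedentary arrays, which enter them with opposite sign.

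**Figure D4:**
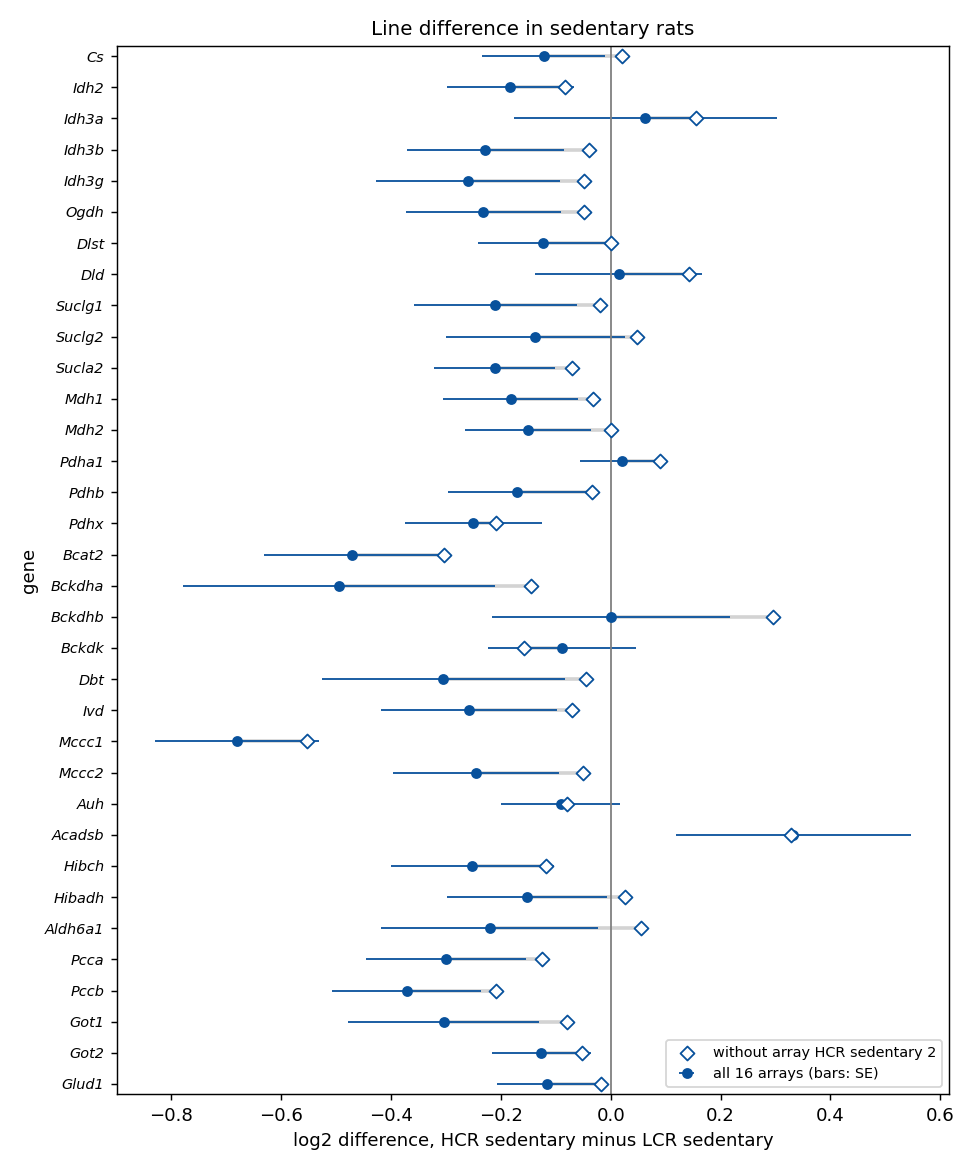
HCR minus LCR difference in sedentary rats in log2 expression (horizontal axis) for each of the 34 genes (rows), as filled points with SE bars for all 16 arrays and open diamonds without the array HCR sedentary 2. Diamonds lie closer to 0 than the filled points in most rows, while Mccc1 stays at -0.55 from -0.68.

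Between trained rats none of the 34 genes passed (limma, smallest adjusted p = 0.0903, Auh), beside 0.374% of probe sets, and 6 had an unadjusted p below 0.05 (17.6% beside 19.7%). The differences, HCR minus LCR, lay above 0 in 23 of 34 with a median of 0.07, beside 64.3% and 0.05 over all genes. In 7 genes all HCR trained rats lay above all LCR trained rats, beside 7.61% of probe sets: Bckdhb, Cs, Idh3a, Idh3g, Pcca, Pdha1 and Suclg2. In Dld alone they all lay below, beside 6% of probe sets. Averaged over training, the line difference passed in 0 members (smallest adjusted p = 0.361, Pdhx; 0.087% of probe sets, 0.0354% higher and 0.0515% lower), with 4 at an unadjusted p below 0.05 (11.8% beside 10.4%). Averaged over lines, the training difference passed in 0 members (smallest adjusted p = 0.142, Auh; 0.00644% of probe sets), with 6 at an unadjusted p below 0.05 (17.6% beside 9.55%).

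Of the 13 citric acid cycle genes, 12 had a difference above 0 with training in HCR, with a median of 0.21, which became 7 of 13 and 0.02 without HCR sedentary 2. In LCR 3 of 13 lay above 0, with a median of -0.03, and 0 of the 13 passed in any comparison. Idh3a had the largest difference of them. It encodes the catalytic subunit of the NAD-dependent isocitrate dehydrogenase, a regulated step of the cycle. Its readings were 10.44, 10.27, 10.56 and 10.92 in HCR sedentary and 11.17, 11.20, 12.21 and 10.91 in HCR trained rats. Idh3a in LCR rats read 10.61, 10.85, 10.49 and 10.00 sedentary and 10.65, 10.47, 10.73 and 10.73 trained. The highest value was on HCR trained 3, the array with the highest fast fibre mean, and the HCR groups met at 10.91 and 10.92. The difference with training in HCR was 0.82 log2 (SE 0.24, adjusted p = 0.121), and 0.54 without HCR trained 3. Between trained rats, which did not overlap, it was 0.73 (SE 0.24, adjusted p = 0.123), and 0.45 without that array. The other subunits gave smaller differences with training in HCR, 0.52 for Idh3g, whose groups did not overlap, and 0.21 for Idh3b, which became 0.31 and 0.02 without HCR sedentary 2.

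Idh2, the NADP-dependent mitochondrial isocitrate dehydrogenase, was the cycle gene with differences below 0 with training in both lines when all arrays were used. It read 13.66, 13.23, 13.68 and 13.53 in HCR sedentary and 13.51, 13.58, 13.10 and 13.61 in HCR trained rats. The LCR values were 13.70, 13.77, 13.63 and 13.73 sedentary and 13.51, 13.40, 13.44 and 13.65 trained. The groups of each line overlapped, in LCR by a single rat. In HCR the difference was -0.07, and its sign depended on HCR trained 3, which read 13.10, and HCR sedentary 2, which read 13.23. With only HCR trained 3 left out, the HCR trained mean lay above the HCR sedentary mean. Without HCR sedentary 2 the HCR sedentary mean was 13.63, above the HCR trained mean of 13.45. The HCR trained rats other than HCR trained 3 also read below 13.63, so with both arrays left out the difference stayed below 0. Averaged over lines the difference was -0.14 (SE 0.08, adjusted p = 0.624).

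Dld encodes the dihydrolipoamide dehydrogenase that the 2-oxoglutarate, pyruvate and branched-chain complexes share, and it was the cycle gene whose interaction lay below 0, at -0.37. It read 10.80, 10.13, 10.70 and 10.42 in HCR sedentary and 10.65, 10.39, 10.34 and 10.69 in HCR trained rats. LCR rats read 10.14, 10.62, 10.76 and 10.46 sedentary and 11.05, 10.84, 10.85 and 10.75 trained. The trained LCR rats had the highest mean, and all of them lay above the trained HCR rats. The LCR training difference was 0.38 (SE 0.15, adjusted p = 0.456), the HCR one was 0.0045, and between trained rats HCR minus LCR was -0.36 (SE 0.15, adjusted p = 0.211). The other genes of the 2-oxoglutarate complex, Ogdh and Dlst, differed with training by 0.07 and 0.06 in HCR and by -0.17 and -0.13 in LCR. The HCR differences of Ogdh, Dlst and Dld were -0.12, -0.06 and -0.12 without HCR sedentary 2.

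Cs, citrate synthase, the entry enzyme of the cycle and a common measure of mitochondrial content, read 12.23, 11.67, 12.22 and 12.26 in HCR sedentary and 12.51, 12.45, 12.28 and 12.45 in HCR trained rats. All trained HCR rats lay above all sedentary ones even with HCR sedentary 2 aside. The difference was 0.33 (SE 0.11, adjusted p = 0.161), and 0.18 without that array, while in LCR it was 0.01. In all, 6 members separated the HCR groups in this way, Auh, Cs, Idh3g, Mccc1, Pcca and Sucla2, beside 4.94% of probe sets. Sucla2, the ADP-forming beta subunit of succinyl-CoA ligase, differed by 0.30 and Suclg1, the alpha subunit, by 0.31, which were 0.16 and 0.12 without HCR sedentary 2. Mdh1 and Mdh2, the cytosolic and mitochondrial malate dehydrogenases, differed by 0.07 and 0.21 in HCR, which were -0.08 and 0.06 without HCR sedentary 2, and by -0.03 and -0.01 in LCR.

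The 3 pyruvate dehydrogenase genes had small differences, with a median of 0.13 with training in HCR, or 0.02 without HCR sedentary 2. Pdha1 and Pdhb, the subunits of its catalytic component, differed with training by 0.13 and 0.16 in HCR, which were 0.06 and 0.02 without HCR sedentary 2, and by -0.02 and -0.0024 in LCR. Pdhx, which binds the dihydrolipoamide dehydrogenase into the complex, read 9.16, 9.05, 8.94 and 9.56 in HCR sedentary and 9.27, 9.09, 9.03 and 9.23 in HCR trained rats. Its LCR values were 9.45, 9.55, 9.52 and 9.21 sedentary and 9.63, 9.34, 9.26 and 9.48 trained. HCR rats tended to the lower end whether trained or not, with overlap in both states. Averaged over training the line difference was -0.26 (SE 0.09, 95% interval -0.45 to -0.07, adjusted p = 0.361).

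Of the 5 genes of branched-chain amino acid entry, 4 had a difference above 0 with training in HCR (median 0.20, or 0.10 and 3 of 5 without HCR sedentary 2) and 2 in LCR (median -0.12). Bcat2 is the mitochondrial aminotransferase that acts first on these amino acids. It read 8.13, 7.73, 8.63 and 8.44 in HCR sedentary and 8.63, 8.29, 8.75 and 8.56 in HCR trained rats. LCR rats read 8.75, 8.91, 8.64 and 8.50 sedentary and 8.46, 8.15, 8.26 and 8.28 trained. Every trained LCR rat lay below every sedentary one, while the HCR groups overlapped and ran the other way. The differences with training were 0.33 in HCR and -0.41 in LCR (SE 0.16 for both), and the interaction was 0.74 (SE 0.23, adjusted p = 0.138). Without HCR sedentary 2 the HCR difference was 0.16 and the interaction 0.57.

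The genes of the branched-chain complex did not follow a single direction. Bckdhb was higher in all trained HCR than in all trained LCR rats, at 10.01, 10.31, 10.26 and 10.17 against 9.56, 9.57, 9.73 and 9.70. That difference of 0.55 (SE 0.22, adjusted p = 0.182) passed at an adjusted p of 0.0328 without HCR sedentary 2, an array that enters this comparison through the shared estimate of spread. It was 0.12 with the beta-actin index in the model. Bckdha, which forms the same component, differed by -0.41 between trained rats and by -0.04 with training in HCR, the latter -0.39 without HCR sedentary 2. Bckdk, the kinase that inhibits the complex, read 10.35, 10.69, 10.41 and 10.48 in HCR sedentary, 10.74, 10.27, 11.07 and 10.65 in HCR trained, 10.57, 10.74, 10.58 and 10.41 in LCR sedentary and 10.73, 10.75, 10.68 and 10.94 in LCR trained rats. Its training difference was 0.20 in either line (SE 0.13, adjusted p = 0.634 in LCR) with overlapping groups.

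Of the 4 genes of leucine breakdown, all had an interaction above 0, with a median of 0.43, or 3 of 4 and 0.33 without HCR sedentary 2. Mccc1, the biotin-carrying subunit of methylcrotonyl-CoA carboxylase, had the largest line difference of the 34 genes in sedentary rats. It read 8.86, 8.33, 8.70 and 8.95 in HCR sedentary and 8.97, 9.12, 9.16 and 9.45 in HCR trained rats. In LCR rats the readings were 9.64, 9.48, 9.29 and 9.16 sedentary and 9.16, 8.74, 8.91 and 9.16 trained. Sedentary rats of the lines did not overlap, and neither did the HCR groups, whereas the LCR groups touched at 9.16. The sedentary difference was -0.68 (SE 0.15, 1.60-fold lower in HCR, adjusted p = 0.344), and -0.55 without HCR sedentary 2. With training it was 0.46 in HCR (adjusted p = 0.146) and -0.40 in LCR (adjusted p = 0.426), and the interaction of 0.86 (SE 0.21, 95% interval 0.41 to 1.31) had an adjusted p of 0.105. With the beta-actin index in the model the interaction was 0.36.

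Its partner Mccc2, the other subunit of the carboxylase, did not show the same size of difference, at -0.25 between sedentary rats, 0.08 with training in HCR and -0.31 in LCR, where the groups did not overlap. For Mccc2 the values without HCR sedentary 2 were -0.05 between sedentary rats and -0.11 with training in HCR. Ivd, isovaleryl-CoA dehydrogenase, the step before the carboxylase, read 11.03, 10.20, 11.02 and 10.81 in HCR sedentary, 10.87, 10.50, 10.39 and 10.86 in HCR trained, 10.97, 11.03, 11.08 and 11.02 in LCR sedentary and 10.96, 10.65, 10.88 and 10.95 in LCR trained rats. The LCR groups separated by a narrow gap, and the HCR groups overlapped. Its training differences were -0.11 in HCR (SE 0.16, adjusted p = 0.768), which was -0.30 without HCR sedentary 2, and -0.16 in LCR.

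**Figure D5:**
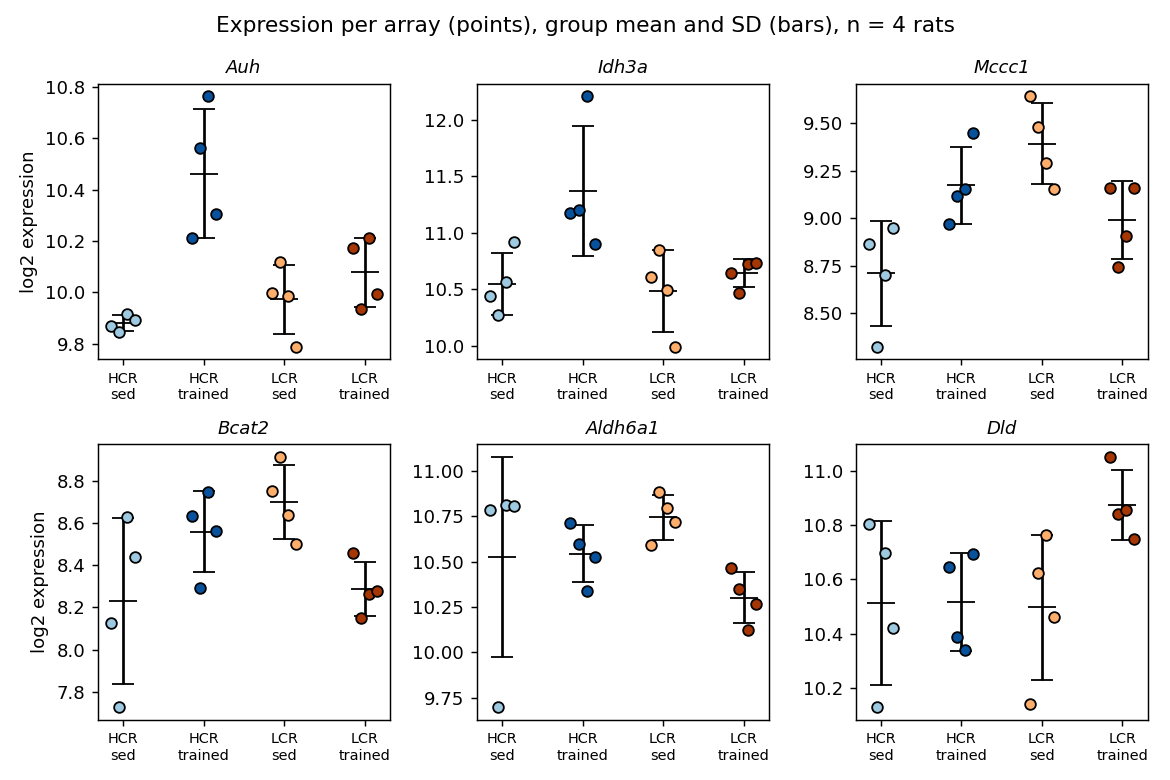
Log2 expression (vertical axis, each panel on its own scale) of Auh, Idh3a, Mccc1, Bcat2, Aldh6a1 and Dld in the 4 groups, with a point per rat and the group mean and SD as bars (n = 4). Auh in HCR trained rats lies at 10.21 to 10.76, above the HCR sedentary rats at 9.85 to 9.92, and Bcat2 and Aldh6a1 show trained LCR rats below sedentary ones.

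Of the 6 genes of valine, isoleucine and propionate breakdown, 5 had a difference above 0 with training in HCR (median 0.19, or 3 of 6 and 0.03 without HCR sedentary 2) and 0 in LCR (median -0.07). Pcca had the largest difference of them in HCR. It encodes the biotin-carrying subunit of propionyl-CoA carboxylase. It read 8.98, 8.34, 9.03 and 9.11 in HCR sedentary and 9.27, 9.53, 9.36 and 9.34 in HCR trained rats. In LCR it read 9.22, 9.35, 9.09 and 8.99 sedentary and 9.19, 8.85, 9.19 and 9.21 trained. Trained HCR rats lay above the other HCR rats and above the trained LCR rats. The difference with training in HCR was 0.51 (SE 0.15, adjusted p = 0.114), and 0.34 without HCR sedentary 2. The partner subunit gene Pccb differed by 0.27 in HCR, or 0.11 without HCR sedentary 2, and by -0.19 in LCR.

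Aldh6a1, methylmalonate-semialdehyde dehydrogenase of the valine pathway, read 10.78, 9.70, 10.81 and 10.81 in HCR sedentary and 10.71, 10.60, 10.34 and 10.52 in HCR trained rats. In LCR it read 10.59, 10.88, 10.79 and 10.72 sedentary and 10.46, 10.35, 10.13 and 10.27 trained. Apart from HCR sedentary 2, the trained rats of each line lay below the sedentary rats of that line. The training difference was -0.45 in LCR (SE 0.20, adjusted p = 0.491) and 0.02 in HCR, which turned to -0.26 without HCR sedentary 2. With both arrays that stand apart left out, HCR sedentary 2 and HCR trained 3, the LCR difference of -0.45 passed at an adjusted p of 0.0390.

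Acadsb, the short/branched-chain acyl-CoA dehydrogenase of isoleucine breakdown, was the only dim member, with a mean of 5.23 below the 40th percentile of probe sets at 5.61. It read 5.54, 5.52, 6.07 and 4.90 in HCR sedentary, 5.25, 4.87, 5.23 and 5.11 in HCR trained, 4.75, 5.03, 5.36 and 5.55 in LCR sedentary and 5.38, 5.23, 5.13 and 4.83 in LCR trained rats. All groups overlapped, and the difference with training in HCR was -0.39 (SE 0.21, adjusted p = 0.361). Hibch and Hibadh, the hydrolase and dehydrogenase of the valine pathway, differed with training by 0.22 and 0.16 in HCR, which were 0.08 and -0.02 without HCR sedentary 2, and by -0.02 and -0.09 in LCR.

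The 3 genes of glutamate and aspartate metabolism had differences above 0 with training in both lines. Got2, the mitochondrial aspartate aminotransferase of the malate-aspartate shuttle, read 12.81, 12.51, 12.75 and 12.86 in HCR sedentary and 13.00, 12.84, 13.04 and 13.15 in HCR trained rats. In LCR it read 12.92, 13.03, 12.69 and 12.80 sedentary and 12.98, 12.95, 12.97 and 13.05 trained. The groups of both lines overlapped. The difference was 0.27 in HCR (SE 0.09, adjusted p = 0.149) and 0.20 averaged over lines (SE 0.06, adjusted p = 0.308). Got1, the cytosolic form, differed by 0.42 in HCR and 0.10 in LCR, and Glud1, glutamate dehydrogenase, by 0.24 and 0.05. In HCR, Got2, Got1 and Glud1 differed by 0.20, 0.20 and 0.14 without HCR sedentary 2.

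Several members had more than 1 probe set, and these did not always read alike. The second Pdha1 probe set, with a mean of 9.73, gave -0.99 between trained rats (SE 0.38, adjusted p = 0.171), where the brightest gave 0.17, and -0.79 with training in HCR against 0.13. Of the 4 Cs probe sets, those with means of 10.42 and 10.33 gave -0.32 and -0.33 between trained rats, while the brightest gave 0.19 and the dimmest, at 6.35, gave 0.41 (adjusted p = 0.0803). Aldh6a1 likewise gave -0.35 from its second and 0.24 from its brightest probe set in that comparison. The direction for Pdha1, Cs and Aldh6a1 in trained rats therefore depends on the probe set read.

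Of 51 other genes around these pathways, 47 were measured, and 0 passed in any comparison. With training in HCR 39 of 47 lay above 0 with a median of 0.16, and in LCR 15 of 47 with a median of -0.04, beside 55.2% and 41.3% of all genes. Between sedentary rats 12 of 47 lay above 0 with a median of -0.17, beside 49%. Without HCR sedentary 2 these were 32 of 47 and 0.07 with training in HCR, and 18 of 47 and -0.06 between sedentary rats. With the beta-actin index in the model they were 25 of 47 and 0.02 with training in HCR, beside 48.8%. In LCR they were then 27 of 47 and 0.03, beside 45.9%, and between sedentary rats 18 of 47 and -0.05, beside 53.7%. Me3, a mitochondrial malic enzyme, read 8.83, 7.73, 9.18 and 9.36 in HCR sedentary and 10.16, 10.44, 9.97 and 9.88 in HCR trained rats, without overlap (difference 1.34, SE 0.30, adjusted p = 0.0656, and 0.99 without HCR sedentary 2). Mcee, the methylmalonyl-CoA epimerase that follows propionyl-CoA carboxylase, differed by 0.66 there (SE 0.14, adjusted p = 0.0656). Me1, the cytosolic malic enzyme, read 10.19, 10.57, 10.82 and 10.57 in HCR trained and 9.95, 9.60, 10.09 and 9.93 in LCR trained rats, also without overlap (difference 0.64, SE 0.14, adjusted p = 0.0563). Prodh, the first enzyme of proline breakdown, was 0.72 higher in trained HCR than trained LCR rats (adjusted p = 0.0708), and Pdp2, a phosphatase that activates pyruvate dehydrogenase, differed by -0.65 (adjusted p = 0.0569). Mpc1, a subunit of the mitochondrial pyruvate carrier, differed by -0.13 between trained rats. With training in HCR the differences furthest below 0 by p were -0.33 for Pdp2 and -0.12 for Bcat1, the cytosolic branched-chain aminotransferase, which was -0.02 without HCR sedentary 2. In LCR they were -0.45 for Me1 and -0.38 for Pdk2, a kinase that inhibits pyruvate dehydrogenase, and those above 0 were 0.22 for Me2 and 0.18 for Mcee. The interaction was 0.94 for Me1 (adjusted p = 0.0983) and 1.34 for Me3 (adjusted p = 0.140), and -0.34 for Pdp2 and -0.29 for Pck2, the mitochondrial phosphoenolpyruvate carboxykinase, which was -0.17 without HCR sedentary 2. Between sedentary rats HCR minus LCR was 0.32 for Pdk3 and 0.17 for Bcat1, and -0.45 for Aldh4a1, of proline breakdown, and -0.27 for Sdha, a succinate dehydrogenase subunit, which without HCR sedentary 2 were 0.18, 0.06, -0.21 and -0.13. Averaged over training the line difference was 0.46 for Prodh, 0.13 for Gls2, -0.48 for Pdp2 and -0.17 for Sdha, the last -0.10 without that array. Averaged over lines the training difference was 0.42 for Mcee, 0.66 for Me3, -0.10 for Abat and -0.20 for Acat1.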

How the data were processed

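Total RNA from 20 mg of soleus was hybridised to Affymetrix rat expression arrays, 1 per rat. The authors deposited 1 log2 value for each probe set and array. RMA and limma appear in the submitters' processing notes. Versions, scan batches and whether all arrays were summarised together are not given in the sources used here. RMA puts arrays on 1 distribution, so differences are relative to the bulk of probe sets. No detection calls were used, and precision is limited by the number of arrays. The 57 control probe sets stayed out of the fit, and 31042 others were fitted with limma 3.58.1 in R 4.3.3, as 4 group means over 16 arrays with 12 residual degrees of freedom and moderated variances without trend. Benjamini-Hochberg adjustment ran over all probe sets within each of 7 comparisons, with a gene called at an adjusted p under 0.05. Shares of probe sets are over all 31042, whereas members were read from 1 probe set per gene. Of 14217 genes read that way, trained and sedentary HCR rats did not overlap in 872 higher and 311 lower with training. For LCR these were 474 and 969. For HCR against LCR they were 1266 higher and 501 lower between trained rats, and 335 and 466 between sedentary rats. Probe sets with 1 symbol numbered 20826, and those with several symbols (436) or none (9780) named no gene. All 34 members matched RefSeq entries of GRCr8 by gene identifier, and 0 symbols changed; RefSeq promoters were used for sequences. The labels describe separate rats, so the tests use spread between rats.

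The members and all lists were chosen with earlier results of these data known. Named with the value on every array were members called in any comparison and the 2 of smallest p in each direction of each comparison; Cs, Bckdhb, Me1, Me3 and the genes read on HCR sedentary 2 were given array values after these were seen. Of the other pathway genes, the 2 of smallest p in each direction of each comparison are named. The code was tested on simulated data. The labels state no pairing of rats by replicate number, and none was assumed. Correlations of same-numbered deviations ranged from -0.48 to 0.57, which cannot show whether rats of 1 number shared any processing. Alternatives covered normalization, dim probe sets, averaging of probe sets, moderation, array weights, the replicate block, the groups fitted, the beta-actin index and arrays left out. Counts above 0 and medians of the members and the other lists without single arrays or with the index were added after seeing the data.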

Additional observations from a re-analysis of the deposited data

Results flagged for a closer look

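Within the groups of 4 arrays, 14 of 136 combinations of gene and group held a sample far from the others by Dixon's criterion, where chance gives about 1 in 20, or 6.8. The array HCR sedentary 2 was the low sample in 8 of them. These were Cs at 11.67, Sucla2 at 10.83, Mdh1 at 12.82, Mdh2 at 12.21, Bckdha at 8.53, Mccc2 at 9.73, Hibadh at 11.23 and Aldh6a1 at 9.70. LCR trained 2, the array with the highest extracellular matrix mean after HCR sedentary 2, was the low sample for Idh3b at 12.26, Bckdha at 9.65 and Pcca at 8.85. LCR sedentary 1 was low for Mdh1, at 13.40 against 13.47 on the other 3 arrays, and HCR trained 3 was low for Hibch, at 8.69 against 9.26 to 9.36. LCR trained 1 was high for Dbt, at 9.35 against 9.16 to 9.17.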

How the results depend on the processing

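The count of members called was 0 under all alternatives for sedentary lines, the interaction and the line difference averaged over training. For training in HCR the count of 1 became 0 with quantile normalization, without dim probe sets, with the mean of all probe sets of a gene, with variance trend and robust moderation, with only the groups compared, with the beta-actin index in the model and with both HCR trained 3 and HCR sedentary 2 left out. It stayed 1 with array medians centred and with array weights. With the replicate block it was 0 (Auh 0.58, adjusted p = 0.0983), and the block changed no other call. Leaving out 1 array at a time gave 0 to 1: the call of Auh was lost without HCR sedentary 1, 2 or 3, HCR trained 2 or 4, LCR sedentary 1, 3 or 4, or any LCR trained array. Between trained lines the count of 0 became 1, Bckdhb, with array weights (0.50, adjusted p = 0.0406), with only the groups compared (0.55, 0.0173) and with both arrays left out (0.52, 0.0360), and was 0 to 1 with 1 array left out, 1 only without HCR sedentary 2. Training in LCR gave 1 with both arrays left out, Aldh6a1. Training averaged over lines gave 2 with array weights, Auh (0.32, adjusted p = 0.0180) and Got2 (0.23, 0.0312), and 1 with both arrays left out, Aldh6a1 (-0.32, 0.0440). The median interaction went from 0.24 to -0.06 with the beta-actin index in the model. The cause of each such change was not tested. With 4 rats a group the SE of a difference between groups ran from 0.08 to 0.28 log2 over the members, with a median of 0.15.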
